A study of Oncorhynchus kisutch with 206 samples.

Results

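The comparison described here is that of hatchery and wild coho salmon smolts sampled in the Chilliwack river in 2008. Its members are the 16 brain samples labelled as river smolts of that place and year, beside 190 other samples of the series, and the origin label divides them into 10 hatchery fish and 6 wild fish. Both origins carry 1 set of map coordinates and a freshwater label, and sex is labelled as unknown (U) for all 16. The labels give no genotype, no age and no pooling of animals. Fish 1, a hatchery fish, has the first region label Mainland, whereas the other 15 have Chilliwack_R, and the second region label is the same for all. Each array carried the RNA of 1 fish in one Alexa dye and, in another, a reference that was pooled from all brain samples of the series. The dyes were never exchanged.

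Coho salmon (Oncorhynchus kisutch) hatch in streams and live there as parr before they turn into smolts, the silvery juveniles that migrate to sea. Smolting prepares a freshwater fish for salt water, and hormones of the pituitary and thyroid, under control of the brain, take part in it. Hatchery smolts are reared on feed at high density and released, while wild smolts grow up in the stream. The question of the comparison was whether brain expression differs between the origins at the same stage and place, given that the fish also differ in size.

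The array features are known only by their position on the array, such as C258R128. None of the tables gives a gene for them, so brain cell markers, hormone genes and pathway lists could not be examined, and no sequence is shown. Values are log ratios, read as log2 of fish over pool. The direction rests on the values and is called likely. Were it the opposite, each value called higher would be lower and the reverse. A value of 0 is the level of the pool, and ratios of different probes are not compared as levels.

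Hatchery smolts were larger than wild smolts in length, mass and condition. Fork length was 12.9, 11.4, 11.4, 12.6, 12.3, 11.4, 12.0, 11.8, 10.4 and 12.1 cm in hatchery fish 1 to 10, against 9.1, 9.1, 9.0, 10.5, 11.2 and 9.9 cm in wild fish 95, 96, 98, 99, 100 and 101. Of the 10 hatchery fish, 9 were longer than every wild fish, and hatchery fish 9 was the exception. The means were 11.8 ± 0.720 cm (SD, n = 10) in hatchery fish and 9.80 ± 0.903 cm (SD, n = 6) in wild fish, a difference of 2.03 cm (two-sided exact permutation test over fish, p = 0.000375, adjusted p = 0.000562 over 3 tests). The smallest p that this test can give is 0.000125.

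Total mass averaged 19.3 ± 3.58 g in hatchery fish and 10.2 ± 2.55 g in wild fish, and again 9 of the 10 hatchery fish exceeded every wild fish (exact permutation test, p = 0.000375, adjusted p = 0.000562). Condition factor, the mass in g times 100 over the cube of the length in cm, measures how heavy a fish is for its length. It was 1.15 ± 0.0424 in hatchery fish (SD, n = 10) and 1.07 ± 0.0535 in wild fish (SD, n = 6), a difference of 0.0861 (exact permutation test, p = 0.00412, adjusted p = 0.00412). The origins overlapped in condition, where 4 of 10 hatchery fish lay above all wild fish and wild fish 95, at 1.17, lay among the hatchery fish.

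The 16 arrays lay on 9 slides. Hatchery fish 1, 6 and 8 shared slide 57, fish 5, 7 and 9 slide 35, and fish 4 and 10 slide 56, and 1 slide, number 14, held both origins with hatchery fish 2 and wild fish 100 and 101. Slide and origin can therefore be separated only through those 3 fish. Between 22.8% and 47.7% of the 43630 probes were empty on hatchery arrays, against 27.2% to 45.2% on wild arrays (exact permutation test of the means, p = 0.419). The SD of the values on an array was 0.768 ± 0.236 in hatchery fish (n = 10) and 0.995 ± 0.205 in wild fish (n = 6). This difference of -0.227 did not pass the exact permutation test (p = 0.0683, adjusted p = 0.205 over 3 tests), although 8 of 10 hatchery arrays had a smaller SD than every wild array.

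Only 3 arrays had an SD over 1, those of hatchery fish 8 at 1.41 and of wild fish 99 and 101 at 1.33 and 1.14, and wild fish 100 followed at 0.997. Without the 3 arrays, a choice made after the values were seen, the difference in array SD was -0.179 and passed (exact permutation test, adjusted p = 0.0168). The arrays were left out by the same measure that was then tested, so this value is a description only. Among the wild fish, the 3 longest (99, 100 and 101) were also those with the 3 largest SDs. Over the 18225 probes with a value in all 16 fish, correlations between pairs of arrays ran from -0.349 to 0.845 with a median of 0.432. Of 120 pairs, 2 lay below -0.3, wild fish 95 with hatchery fish 8 and wild fish 95 with wild fish 99. The labels give the same dyes throughout, and the sign of no array was changed for the comparison. Dye labels cannot show whether a deposited array is inverted, and this was not tested. Which dye was divided by which is not stated in the labels.

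The strongest pattern among the 16 brain profiles did not separate the origins. Principal component 1 held 57% of the variance over the 18225 probes. Its scores averaged 18.8 ± 70.7 in hatchery fish (SD, n = 10) and -31.3 ± 89.9 in wild fish (SD, n = 6) (exact permutation test, p = 0.232, adjusted p = 0.320 over 4 components). The lowest scores belonged to hatchery fish 8 at -152.7, then wild fish 99 at -143.0 and wild fish 101 at -110.8, which are the 3 arrays of SD over 1. The highest, 96.0, was that of wild fish 95. Over the 16 fish, component 1 went with the SD of the array at Pearson's r = -0.908 (permutation p = 2e-05, adjusted p = 0.00016 over 8 relations of 4 components with 2 array measures) and Spearman's rho = -0.706 (permutation p = 0.00312, adjusted p = 0.0206). With the share of empty values the coefficients were r = -0.877 (permutation p = 6e-05, adjusted p = 0.00024) and rho = -0.676 (permutation p = 0.00516, adjusted p = 0.0206). Without fish 8 and 99, the 2 farthest from the median in both measures, r was -0.796 and -0.742 (permutation p = 0.00116 and 0.00396). With array SD, r was -0.922 among hatchery fish and -0.923 among wild fish. The scores and the SD come from the same values. Over the 18225 probes, the hatchery minus wild difference of means correlated with the loading on component 1 at r = 0.735 and with that on component 3 at r = 0.496, a description across probes of the same 16 arrays.

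Component 3, with 6.19% of the variance, was higher in hatchery fish, at 13.2 ± 24.8 (SD, n = 10), against -22.0 ± 4.57 in wild fish (SD, n = 6). The difference of 35.2 passed the exact permutation test (p = 0.00687, adjusted p = 0.0275), which took no account of the slide. It was not even over the hatchery fish. The 7 hatchery fish outside slide 35 scored between 21.1 and 37.9, and the 3 on slide 35 scored -13.8, -22.0 and -29.3, in or near the range of the wild fish, -29.8 to -16.5. On slide 14, which held both origins, hatchery fish 2 scored 32.9, and wild fish 100 and 101 scored -19.9 each.

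The call on component 3 did not hold throughout. Leaving out 1 fish ended it for hatchery fish 3, 6, 8 and 10 and wild fish 95 and 99, with adjusted p from 0.0551 to 0.179 (exact permutation tests). With arrays scaled to one SD the difference was 28.4 (exact permutation test, adjusted p = 0.271). Without the 3 arrays of SD over 1 the component taken as its match differed by -2.15 (exact permutation test, adjusted p = 0.903). In each alternative, components were matched by the correlation of their scores with the original scores. How close each match was is not recorded, so a lost difference cannot be told from a different component. Components 2 and 4, with 9.88% and 3.81% of the variance, had adjusted p of 0.320 and 0.724. For components 2 to 4 over all fish, r with array SD or with the empty share lay between -0.244 and 0.168, and no such relation passed (permutation tests, adjusted p = 0.741 each). Without fish 8 and 99, r with array SD was -0.508, -0.448 and -0.392 for components 2, 3 and 4 (permutation p = 0.0599, 0.109 and 0.167). Within origins, in the same order, it was 0.219, 0.174 and -0.289 among hatchery fish and 0.592, -0.591 and 0.138 among wild fish. The part of the slide in component 3 was not tested.

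The distance between whole profiles did not separate the origins past the threshold. The root mean square difference over the same probes averaged 1.10 between origins, 0.939 among hatchery fish and 1.15 among wild fish. The excess of 0.106 between over within origins did not pass a one-sided exact permutation test (p = 0.0683). With arrays scaled to one SD it was 0.0385 (p = 0.15). It was 0.0683 without wild fish 99 (p = 0.154), 0.185 without hatchery fish 8 (p = 0.0106), 0.165 without wild fish 95 (p = 0.0390) and 0.106 without the 3 arrays of SD over 1 (p = 0.0392), each by the same exact permutation test.

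The 16 profiles were also placed on 4 axes drawn from other fish of the series, none of which is among the 16. On the axis that leads from hatchery parr of the Chilliwack of 2008, at 0 on average (n = 5), to the smolts of 2009, at 1 on average (n = 35), hatchery fish scored 0.419 ± 0.372 and wild fish 0.00565 ± 0.544 (SD, n = 10 and n = 6). This did not pass (exact permutation test, p = 0.0913, adjusted p = 0.169 over 4 axes). The wild fish ran from -0.479 to 0.983, and the 4 lowest scores of all 16 were those of wild fish 101, hatchery fish 8, and wild fish 99 and 100, the 4 arrays with the largest SD. Wild fish 96 and 98 lay on slides 59 and 13, which also held parr of this axis. Without those fish the difference between the origins did not pass either (exact permutation test).

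The next axis leads from wild river smolts of 2009, at 0 on average, to fish of the ocean spring, at 1 on average (n = 12 each), and here the origins lay just short of the threshold. The scores were 0.603 ± 0.164 in hatchery fish (SD, n = 10) and 0.886 ± 0.236 in wild fish (SD, n = 6), a difference of -0.283 (exact permutation test, p = 0.0134, adjusted p = 0.0534). Hatchery fish 8, at 1.01, was the only hatchery fish above 0.732, while 4 of the 6 wild fish lay between 0.927 and 1.12. With arrays scaled to one SD the difference was -0.124 (adjusted p = 0.327).

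The axis from wild to hatchery smolts of the Capilano river in 2009 gave 0.673 ± 0.0597 in Chilliwack hatchery fish and 0.732 ± 0.0872 in Chilliwack wild fish (exact permutation test, adjusted p = 0.169). On the axis of fork length within the smolt groups of 2009 the scores were 0.55 ± 1.08 in hatchery fish and 1.25 ± 1.35 in wild fish (exact permutation test, adjusted p = 0.268). Over the 16 fish, this score went with component 1 at r = -0.9835 and with array SD at r = 0.8502. For the parr to smolt score the coefficients were 0.9497 and -0.8227. They were -0.7624 and 0.807 for the ocean spring score, and -0.1354 and 0.0361 for the Capilano score. Apart from the Capilano score, the scores therefore followed component 1 and array SD, and they are not separate observations. These relations were not tested.

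Probe by probe, no difference between hatchery and wild smolts passed the test, though small p were frequent. Of 29903 probes with 3 or more values on each side, 0 (0%) were called by limma at an adjusted p under 0.05, and the smallest adjusted p was 0.0583. At an unadjusted p under 0.05 there were 3376 probes (11.3%), of which 2153 were higher and 1223 lower in hatchery fish. The difference had a median size of 0.29 and a median standard error of 0.30, and the 95% interval of the median probe was its estimate plus or minus 0.63. Differences of 1 or more in size were seen at 2069 probes (6.92%). The number of arrays limits the precision. That interval is for a single probe before adjustment, so at the median standard error a difference had to be larger than it to be called. None of the 2069 probes with a difference of 1 or more was called.

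The probe with the smallest p in the whole comparison was C020R020, which was lower in hatchery fish. Its log2 ratios were -0.56, -0.66, -0.23, -0.93, -1.10, -0.05, -0.45, 0.10, -0.85 and -1.0 in hatchery fish 1 to 10, against 0.48, 1.00, 0.63, 1.71, 1.20 and 1.84 in wild fish 95, 96, 98, 99, 100 and 101. All 10 hatchery fish lay below all 6 wild fish. The fitted difference was -1.72 ± 0.25 (SE), with a limma adjusted p of 0.0583, just short of the threshold.

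C037R017 was the other probe named on the low side. It averaged -0.15 ± 0.43 in hatchery fish (SD, n = 10), with a highest value of 0.52, and 1.22 ± 0.51 in wild fish (SD, n = 6), with a lowest value of 0.57. The origins did not overlap here either, and the fitted difference of -1.41 ± 0.24 had a limma adjusted p of 0.111. In both probes the wild fish 99 and 101, with arrays of SD over 1, had the 2 highest values.

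On the high side, C258R128 was at -0.09, 0.15, -0.16, -0.40, -0.09, -0.23, -0.30, -0.08, -0.16 and -0.15 in hatchery fish 1 to 10, against -1.61, -1.28, -0.74, -2.18, -1.02 and -1.43 in the wild fish in the order above. All 10 hatchery fish were above all 6 wild fish. The hatchery values were close together, with an SD of 0.15, against 0.50 in wild fish. The fitted difference was 1.25 ± 0.19 (limma adjusted p = 0.0791).

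C240R126 averaged 0.34 ± 0.73 in hatchery fish (SD, n = 10) and -1.63 ± 0.56 in wild fish (SD, n = 6), a fitted difference of 2.05 ± 0.35 (limma adjusted p = 0.111). Hatchery fish 1 to 4 stood highest, between 1.00 and 1.16, and hatchery fish 8, at -0.88, was the only one below the highest wild fish, fish 95 at -0.64. Over all probes with a value in every fish, the 10 hatchery fish lay above the 6 wild fish at 3 probes and below them at 12, together 0.0823% of 18225.

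The 4 probes were also looked at in a narrower range of lengths. Fork lengths of 9.9 to 11.4 cm were found in 4 hatchery fish (2, 3, 6 and 9) and 3 wild fish (99, 100 and 101). Length was not matched in them. Hatchery fish 2, 3 and 6, at 11.4 cm, were longer than the longest wild fish, at 11.2 cm. Mean length was 11.15 cm in these hatchery fish and 10.53 cm in these wild fish. In these 7 fish the mean hatchery minus wild difference was -2.03 for C020R020, -1.91 for C037R017, 1.44 for C258R128 and 2.41 for C240R126. The 4 probes were chosen for their difference between all the fish, these 7 included. In C020R020, C037R017 and C258R128 the origins did not overlap, so the direction in any subset was fixed beforehand. The values here and on slide 14 are therefore a description and not a check. The array SDs of the same fish did not overlap, at 0.591 to 0.863 in the hatchery fish and 0.997 to 1.33 in the wild fish. On slide 14 alone, hatchery fish 2 minus the mean of wild fish 100 and 101 gave -2.18, -1.90, 1.37 and 3.02 for the probes in that order, with 3 fish and no test. Without the 3 arrays of SD over 1 the fitted differences were -1.47, -1.08, 1.01 and 1.94 (limma adjusted p = 0.102, 0.243, 0.148 and 0.148).

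How many probes were called depended on the fit. A fit over all 51 river smolts, with 1 mean per river, year and origin, called 106 probes (95 higher and 11 lower in hatchery fish), and one over all arrays of the series called 185 (151 higher, 34 lower). C020R020 was called in both, with a limma adjusted p of 0.0287 and 0.00111, and so were C240R126, at 0.00827 and 0.00294, and C258R128, at 0.0379 and 0.0337. C037R017 was not called over the river smolts (limma adjusted p = 0.118) and was called over all arrays (0.0370). Weighting each array by its scatter around the means of the origins, as limma estimates it, called 3296 probes. The weights ran from 0.183 for hatchery fish 8 to 2.37 for hatchery fish 3. The 7 fish of overlapping length gave 4126 called probes of 19851, with a slide correlation of 0.407 as against 0.15 in all 16, and with the array SDs apart as given above. Whether length, slide or array SD sets that count cannot be told apart in 7 fish.

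Single fish mattered as well. Without wild fish 95, the fish at the high end of component 1, 1020 probes were called (867 higher, 153 lower in hatchery fish). The count was 3 without hatchery fish 8, 2 without wild fish 98 and 0 without any other single fish. The first component as a term, added after the data were seen, gave 90 (64 higher, 26 lower).

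With fork length as a term, the origins were compared at equal length on a common straight line. Again 0 of 29903 probes (0%) were called by limma, with 2967 (9.92%) at an unadjusted p under 0.05. The median standard error was 0.50 with the term and 0.30 without it. The median size of the difference was 0.49 with the term and 0.29 without it. Of the 3376 probes at an unadjusted p under 0.05 in the plain comparison, 3357 (99.4%) kept their direction and 1328 (39.3%) also had an unadjusted p under 0.05 with length as a term. Of the same 3376 probes, 2218 (65.7%) had a difference of larger size with the term. Over all 29903 probes, 81.9% had the same direction with and without the term. These shares come from the same 16 fish and are a description.

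The smallest adjusted p with the length term was that of C016R063. Its ratios were -0.78, 0.05, 0.09, -0.21, -0.43, 0.15, -0.02, 0.16, 0.54 and 0.15 in hatchery fish 1 to 10, against -0.31, -0.45, 0.23, -1.14, -2.13 and -0.90 in the wild fish in the same order. The 3 shorter wild fish lay among the hatchery fish, and the 3 longer ones lay below all of them. Those longer fish, 99, 100 and 101, also had the largest array SDs of the wild fish, at 1.33, 0.997 and 1.14. The part of array SD in this split was not tested. At equal length the fitted difference was 2.04 ± 0.29 (limma adjusted p = 0.0544), with a slope of -0.64 ± 0.11 per cm (adjusted p = 0.840), while the plain difference of means was 0.75. The call depended on the slide correlation used. The value estimated in this fit is 0.0451; with that of the fit without length, 0.15, the adjusted p was 0.0444 and the probe was called. C020R020 kept a difference of -1.92 ± 0.41 with the length term (adjusted p = 0.500), and C130R156, at 2.14 ± 0.42, and C082R014, at -1.41 ± 0.31, had the same adjusted p.

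No slope on fork length within an origin passed the test. The slope on length was called at 0 of 29903 probes (0%) by limma, and 914 (3.06%) had an unadjusted p under 0.05. The median size of the slope was 0.14 per cm. The probes with the smallest p were C245R054, at 0.49 ± 0.12 per cm, and C244R055, at 1.06 ± 0.29 per cm, among rising slopes, and C016R063 and C227R081, the second at -0.69 ± 0.17 per cm, among falling ones, with adjusted p of 0.840 to 0.933. In the 35 smolts of 2009 no slope was called either, and all 4 were closer to 0, at 0.11 ± 0.14 per cm for C245R054, 0.02 ± 0.19 for C244R055, -0.24 ± 0.17 for C016R063 and 0.06 ± 0.16 for C227R081.

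Whether a probe had a value at all was tested too (why values are empty was not stated). Of 22257 probes with a value in some but not all of the 16 fish, 0 (0%) were called by Fisher's exact test after adjustment, and 325 (1.46%) had an unadjusted p under 0.05, of which 215 were filled more often in hatchery fish and 110 in wild fish. C004R132 had a value in 9 of 10 hatchery fish and in 0 of 6 wild fish (Fisher's exact p = 0.000874, adjusted p = 1.0). C226R159 was filled in 10 of 10 hatchery fish and 1 of 6 wild fish, C096R008 in 0 of 10 hatchery fish and 5 of 6 wild fish, and C100R008 in 1 of 10 hatchery fish and 5 of 6 wild fish. No probe was filled in all fish of one origin and in none of the other. Such a split would give the smallest p that Fisher's exact test can reach here, 0.000125. A single probe with that p would still not pass the adjustment over 22257 probes. The count of 0 therefore does not show that the presence of values is alike in the origins.

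The Capilano river, sampled in 2009, offers a second pair of origins with 7 hatchery and 3 wild smolts. Hatchery fish were the longer ones there too, at 10.3 to 12.0 cm against 9.4 to 10.4 cm in wild fish. Wild fish 1547 and 1548 carry the same length and mass labels, and their arrays, on different slides, correlated at 0.360. In this river 1 of 21490 probes (0.00465%) was called by limma, and 1145 (5.33%) had an unadjusted p under 0.05. The contrast came from 1 fit over the Chilliwack and Capilano smolts together, with a slide correlation of 0.268. Its spread among fish was estimated over both rivers. The called probe, C004R077, was higher in hatchery fish by 2.33 ± 0.30 (limma adjusted p = 0.000428).

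In the Chilliwack smolts the origins overlapped in the same probe. Its ratios there were -0.0525 ± 0.397 in hatchery fish (SD, n = 10) and 0.126 ± 0.397 in wild fish (SD, n = 6). In Capilano fish they were -0.39 ± 0.28 in hatchery fish (SD, n = 7) and -2.74 ± 0.62 in wild fish (SD, n = 3). The 3 Capilano wild fish, at -2.82, -2.09 and -3.32, stood below all 23 other smolts of these rivers. Elsewhere in 2009 the probe averaged -0.72 in Salmon wild smolts (n = 9), -0.39 in Chehalis and -0.44 in Puntledge hatchery smolts (n = 8 each). The lowest Salmon wild fish, at -2.25, was below the Capilano wild fish at -2.09. The difference of the hatchery minus wild difference between rivers, Chilliwack minus Capilano, was -2.49 ± 0.39 (limma adjusted p = 0.0152). It was the only call among 21197 probes (0.00472%), where 1802 (8.5%) had an unadjusted p under 0.05. That call was lost without Capilano hatchery fish 1536 (adjusted p = 0.0508), wild fish 1544 (0.0699) or wild fish 1548 (0.236). River and year cannot be told apart. The other probes named by the same rule did not pass: in the Capilano, C109R029 differed by 1.49, C177R074 by -1.78 and C051R120 by -1.78 (limma adjusted p = 0.212, 0.496 and 0.496), and between rivers C051R120 differed by 2.59, C178R149 by 2.62 and C109R029 by -1.73 (limma adjusted p = 0.400, 0.401 and 0.400). Without Capilano wild fish 1547 the count called in that river was 46, and without wild fish 1544 it was 4; between rivers it was 3 and 2.

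The direction of the Chilliwack differences was compared with that in other hatchery and wild fish of the series, a choice made after the data were seen. Over the 21197 probes measured in both rivers, the hatchery minus wild differences had the same sign at 47.9% of probes, with a correlation over probes of -0.12. The 4 probes named in the main comparison differed in Capilano smolts by 0.24 for C020R020, 0.71 for C037R017, -0.06 for C258R128 and 0.24 for C240R126, with only the last in the Chilliwack direction. Among those of the 3376 probes at an unadjusted p under 0.05 that were measured elsewhere, the share with the Chilliwack direction at 6 other places and times was lowest, at 11.2% of 3018 probes, in the ocean fish labelled WCVI of fall 2008 (5 hatchery and 12 wild). It was highest, at 71.7% of 3169 probes, in those labelled south_SoG of fall 2009 (10 hatchery and 12 wild). Over all probes the shares at these places were 26.0% and 53.4%. These comparisons share no fish with the Chilliwack, but all arrays share the pool and the probes.

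The named probes were set beside the other river smolts. C020R020 averaged -0.57 in Chilliwack hatchery smolts and 1.14 in Chilliwack wild smolts, and the 5 smolt groups of 2009 lay between -0.78 and -0.32. C037R017 averaged -0.15 in Chilliwack hatchery smolts and 1.22 in Chilliwack wild smolts. The groups of 2009 lay between them, from 0.0057 in Capilano wild smolts to 1.01 in Puntledge hatchery smolts. C240R126 averaged 0.34 in Chilliwack hatchery smolts and -1.63 in Chilliwack wild smolts, with -0.65 to -0.22 in the groups of 2009. C258R128 averaged -0.15 in Chilliwack hatchery smolts and -1.38 in Chilliwack wild smolts, and the groups of 2009, at -0.97 to -0.16, lay between them. These levels are given as a description, since the probes were chosen for the difference between the Chilliwack origins.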

How the data were processed

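Brain RNA was measured on 2-colour arrays. The values are the log2 ratios that the authors deposited, per the labels' protocols of fish over a pool of all brain samples; the log base and direction are not stated and were read from the values. Over 10 variance classes, log2 of the mean back-transformed ratio stayed between 0.0629 and 0.209 for fish over pool and reached 1.16 for pool over fish. A natural log gave 0.140 to 0.265 and is possible; differences would then be larger in fold terms, and calls would not change. How features were extracted and normalized, and why values are empty, is not given in the sources used here. A second table that the authors deposited, its unit recorded as other, holds the same values (100% identical in the 15 fish read from it) and 18 control rows.

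Groups came from the labels. limma 3.58.1 in R 4.3.3 was fitted per probe, with empty values left out, the slide as a random block (correlation from all probes fitted, 0.15) and Benjamini-Hochberg adjustment at 0.05 over probes with 3 or more values a side. Exact permutation tests over fish took no account of the slide, and neither did Fisher's exact test, which used scipy 1.17.1. Relations of component scores with array measures used 100000 permutations, where the smallest p is 1e-05. The fits were tested on simulated data with noise drawn separately for each probe. Those data held no pattern shared by the probes of an array, such as component 1, so the test does not cover it. Fish numbers were taken as separate animals, and p-values measure the spread among them. The probes named are, per comparison, the 2 higher and 2 lower with the largest called difference, or else with the smallest p among probes filled in every fish. Members and lists were chosen with earlier results of these data known. A first look at the data gave the fit with fork length the slide correlation of the fit without it, and called 1 probe, C016R063. A correlation from 3000 seeded probes was then used to save time. The values reported use each fit's own correlation from all probes, and the other versions are kept as alternatives. No column of unmapped samples was used.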

Additional observations from a re-analysis of the deposited data

Results flagged for a closer look

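Hatchery fish 8 stood apart from the other 9 hatchery fish in 4 measures. The SD of its array was 1.41, against 0.863 for the next hatchery array. The median of its array was 0.146, against 0.0150 for the next. Its score on component 1 was -152.7, with the next at -36.0, and its score on the axis from river smolts to ocean spring was 1.01, with the next at 0.732. These measures come from the same array and are not separate observations.

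In C051R120, hatchery fish 9 of the Chilliwack was at 0.76, with the next hatchery fish at -0.59, and in C109R029, Capilano hatchery fish 1534 was at 0.87, with the next at 0.08. In all, 63 groups of 4 to 10 values were examined and 6 gave such a gap; chance gives about 1 in 20.

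The hatchery minus wild difference of C004R077 was unlike in the 2 rivers, with a Chilliwack minus Capilano difference of -2.49 by the interaction term of the limma fit (adjusted p = 0.0152). The array SDs of the 3 Capilano wild fish were 0.784, 0.643 and 0.769, and between 34.2% and 45.7% of their probes were empty; the part of these in the difference was not tested.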

How the results depend on the processing

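With the slide as a fixed term, the hatchery minus wild difference rests on slide 14 alone, with hatchery fish 2 against wild fish 100 and 101. No count of called probes is given for that setting. The count of 0 called probes for hatchery minus wild stayed 0 with array position as a term and with 5 or more values a side. In settings added after the data were seen, the count stayed 0 without the 3 arrays of SD over 1 and with the slide correlation from 3000 seeded probes. It was 1 with no slide term, quantile normalization, arrays scaled to one SD, probes filled in all 16 fish, or trend and robust variances, 10 with the share of empty values as a term, 106 over the 51 river smolts, 185 over all arrays of the series, 3296 with array weights, 4126 in the 7 fish of 9.9 to 11.4 cm and 90 with the first component as a term (added later). Leaving out each fish gave 0 to 1020. The 4 named probes, chosen for their difference in these same fish, kept their direction in every fit. C020R020 had a limma adjusted p under 0.05 in 14 of 33 fits, from 0.00108 to 0.308. With fork length as a term the count was 0 with mass in place of length and with no slide term. In settings added after the data were seen it was 0 without the 3 arrays and with the 3000 seeded probes. Likewise added later, it was 2 with the first component and 1 with the slide correlation of the fit without length. On leaving out each fish it was 0 to 1. The slope count was 0 throughout, and in the smolts of 2009 the slope of C227R081 turned to 0.0609 while those of C244R055, C245R054 and C016R063 were 0.0221, 0.110 and -0.241. The Capilano count of 1 ran from 1 to 46 and that of the difference between rivers from 0 to 3 on leaving out each Capilano fish (added later); both were 1 with no slide term and with the first component. Component 3 differed by 28.4 with scaled arrays and by -2.15 without the 3 arrays, and by 25.1 to 40.8 on leaving out each fish; components 2 and 4, not called, turned to -8.25 and -0.31 with scaled arrays, and component 4 ran from -16.4 to 13.7 on leaving out each fish, as low as -1.47 and -16.4 without hatchery fish 9 and wild fish 95. How closely the components of these runs matched the original ones is not recorded. The distance was 0.0385 with scaled arrays and ran from 0.0683 to 0.185 on leaving out each fish. Without the 3 arrays it was 0.106, now past the threshold. Since those arrays were left out for their SD, the array SD difference of -0.179 there is no test of the origins. The 4 axis scores kept their direction and stayed short of the threshold in each alternative run. The causes were not tested. No paired analysis was possible because the 2 origins share no fish number.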

Other observations

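The 18 control rows of the second deposited table were not used in any comparison. They were read in 9 hatchery and 6 wild fish. Hatchery fish 3 was left out for a clerical reason, not for its values, and its control rows were not examined. Of the 18 rows, 12 had 3 or more values on each side. All 12 had a lower mean in hatchery than in wild fish, with differences of -0.495 to -0.0618 and a median of -0.246. What the control rows measure is not stated, and their part in the other differences was not tested. Over the probes with a value in all 16 fish, the median SD among fish was 0.545 in hatchery fish and 0.611 in wild fish, and 64.4% of 18225 probes had the larger SD in wild fish; this was not tested.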
